A study of Homo sapiens with 6 samples.

Results

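The hypoxia miRNA miR-210 was followed through both of its mature arms, hsa-miR-210-3p and hsa-miR-210-5p, which are 2 of the 2588 mature human miRNAs in the deposited table and were chosen by name. The table covered 6 libraries of Huh7, an established hepatoma cell line, collected 48 h after transient transfection by lipofection. The overexpression group (3 libraries) received the plasmid carrying the circular RNA hsa_circ_0098181, and the control group (3 libraries) received the control plasmid. All cells were grown in DMEM with serum under CO2, no library was labelled as hypoxic or given an oxygen level, and the circular RNA itself was not among the features counted. Total counts were 7978507, 8469016 and 8289232 for overexpression (replicates 1 to 3), and 10786295, 8677214 and 7144798 for the control plasmid. The labels do not say that the replicates were separate cultures, so that p-values here measure the spread between these libraries, which may be technical.

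miR-210 is the best-known miRNA of the response to low oxygen. Its gene is transcribed under HIF1A, the oxygen-sensitive transcription factor, and among its established targets is ISCU, a scaffold protein for the iron-sulfur clusters of mitochondrial enzymes. In hepatocellular carcinoma and other solid tumors it is often measured as a marker of hypoxia.

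The sequences of both arms and of their hairpin are shown because the results turn on the balance between the arms and on how well their reads can be told from those of other miRNAs. They were taken from RefSeq (GRCh38.p14) and are written 5′ to 3′, with bases 2 to 8, the seed, in capitals for the mature arms and with both arms in capitals for the hairpin.
hsa-miR-210-3p: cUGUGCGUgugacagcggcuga
hsa-miR-210-5p: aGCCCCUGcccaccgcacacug
hairpin: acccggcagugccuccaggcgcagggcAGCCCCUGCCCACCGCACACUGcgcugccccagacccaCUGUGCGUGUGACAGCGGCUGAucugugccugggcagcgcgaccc

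The hairpin is encoded on the minus strand of chromosome 11 at chr11:568089-568198, with the 3p arm at chr11:568112-568133 and the 5p arm at chr11:568150-568171. In GENCODE release 29 (GRCh38) this is the gene MIR210 (ENSG00000199038.1). It lies in the intron between exons 1 and 2 of the non-coding host gene MIR210HG (ENSG00000247095.2), in each of its annotated transcripts MIR210HG-201 to MIR210HG-204. Both arms are 22 bases long, and their GC contents are 63.6% for the 3p arm and 72.7% for the 5p arm. In the fold of lowest free energy given by RNAfold for the hairpin (-59.50 kcal/mol), 16 base pairs joined the arms, 11 of them G with C and 5 A with U. Of the 2281 miRNAs of the table with a RefSeq sequence, 0 others had the seed of either arm. The nearest sequence differed from miR-210-3p at 9 positions and from miR-210-5p at 8, with shifts of up to 2 bases allowed. Bases 2 to 7 of the 5p arm alone were shared with hsa-miR-4749-3p.

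The liver identity of the cells was checked on marker miRNAs. The hepatocyte markers miR-122-5p, miR-192-5p, miR-194-5p and miR-148a-3p together held 403377 to 435127 TPM in every library, with control replicate 3 lowest. TPM is here the count relative to the total of its library, with no term for length. miR-122-5p was the most abundant miRNA of the table. The 5 blood cell markers summed to 13.3 to 19.1 TPM, led by miR-142-3p. The 3 muscle markers summed to 1.45 to 2.24 TPM, led by miR-1-3p, and the 3 markers of fibroblasts and smooth muscle summed to 115 to 132 TPM, led by miR-143-3p. The 2 neuronal markers summed to 98.6 to 149 TPM, nearly all from miR-9-5p. The endothelial markers miR-126-3p and miR-126-5p were clearly present, at 4178 to 4341 TPM in the overexpression libraries and 3811 to 4292 TPM in the controls. No marker of these lists was at 0 in all 6 libraries, and their part in the values of miR-210 was not tested.

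Control replicate 3 stood apart from the other libraries. The median absolute log2 difference over the 192 miRNAs with a mean of at least 50 CPM after TMM scaling (edgeR's correction of library size for composition) was 0.055 between control replicates 1 and 2. It was 0.21 and 0.20 between these libraries and control replicate 3, and 0.088 to 0.12 among the overexpression libraries. Control replicate 3 also had the smallest total and the largest TMM factor (1.09, against 0.921 to 1.03 in the other 5 libraries). The comparisons between the groups are therefore given with and without this library.

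miR-210-3p was well expressed in Huh7 cells under both plasmids, and 1 control library set it apart from most other miRNAs. Its reads numbered 2523, 3058 and 3027 under overexpression and 5207, 4111 and 873 in the controls, each in the order of replicates 1 to 3. Relative to library totals, this was 316, 361 and 365 TPM under overexpression, beside 483, 474 and 122 TPM for the control plasmid. Control replicates 1 and 2 were thus above all overexpression libraries and control replicate 3 was below all of them, so that the groups overlapped. The 95% Poisson interval of the lowest value was 114 to 131 TPM and that of the highest 470 to 496 TPM, and such intervals cover counting error only. The depth is not the limit for this arm.

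**Figure D1:**
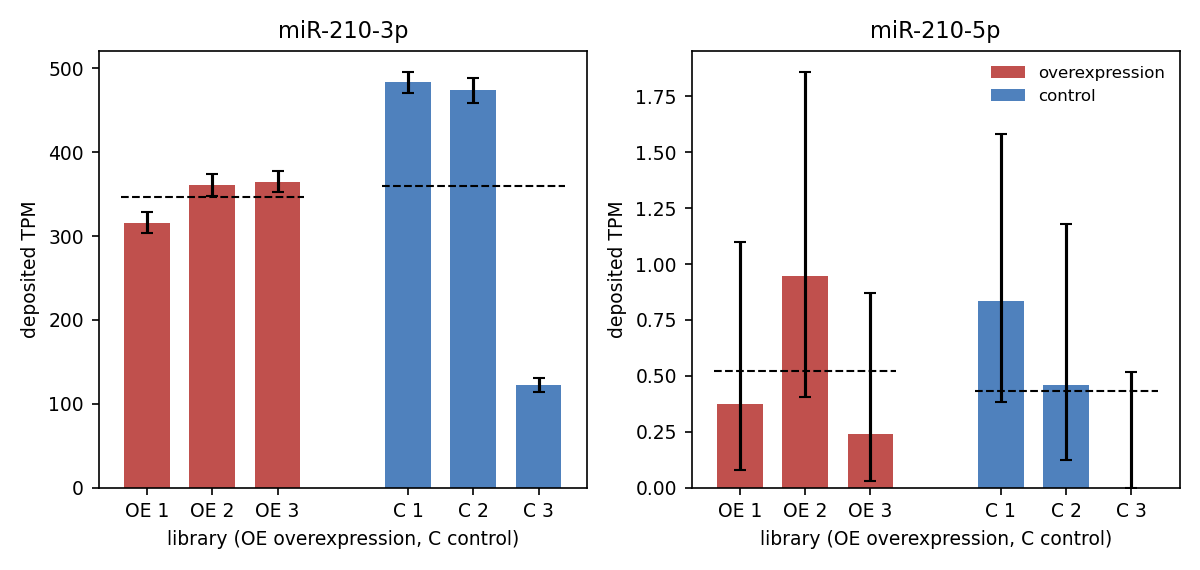
Deposited TPM of miR-210-3p (left) and miR-210-5p (right) in each library, with 95% Poisson intervals as error bars and the mean of each group as a dashed line. For miR-210-3p, the control mean of 360 TPM lies between 2 libraries at 474 and 483 TPM and 1 at 122 TPM, and for miR-210-5p all values are under 1 TPM.

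By its mean of 354 TPM over the 6 libraries, miR-210-3p ranked 97 in the table. miR-106b-5p (364 TPM) and miR-140-5p (363 TPM) stood just above it, and miR-192-3p (350 TPM) and miR-152-3p (345 TPM) just below. These neighbors differ from it by less than its own standard deviation of 131 TPM. In control replicate 3 the same neighbors had 373, 379, 323 and 324 TPM, beside 122 TPM for miR-210-3p. Its rank within a library was 87 and 89 in control replicates 1 and 2, 93 to 100 in the overexpression libraries and 144 in control replicate 3.

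The comparison asked whether the level of miR-210-3p differed between cells with hsa_circ_0098181 and cells with the control plasmid. The mean level was 347 ± 27.2 TPM under overexpression and 360 ± 206 TPM with the control plasmid (SD, n = 3 each), and the medians were 361 and 474 TPM. The difference of -12.1 TPM was far smaller than the spread of the controls (two-sided exact permutation test, p = 1, where 3 libraries against 3 cannot go below 0.1). After TMM scaling the means were 362 ± 39.7 and 351 ± 207 CPM (SD, n = 3 each). edgeR's quasi-likelihood test put the log2 fold change at 0.046 with a standard error of 0.35, a 95% confidence interval of -0.71 to 0.80 and an adjusted p of 0.953. This interval spans relative levels of 0.61 to 1.75, so that neither a moderate decrease nor a moderate increase can be told from no difference here. The width depended on the setting, since with all 6 libraries the standard error was 0.11 without a filter on low counts, 0.23 with upper-quartile factors and 0.60 in DESeq2. Of the 552 miRNAs tested, edgeR called 0 (0%) at an adjusted p under 0.05 and 50 (9.06%) at an unadjusted p under 0.05, while DESeq2 gave 0 and 41 and limma 0 and 52. The groups did not overlap for 85 of the 552 miRNAs (15.4%), and miR-210-3p was not among them.

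The result for miR-210-3p depended on control replicate 3. Without that library, the overexpression libraries (316 to 365 TPM) lay below both remaining controls (474 and 483 TPM, mean 478 ± 6.34, SD, n = 2). Groups that do not overlap were common with these 5 libraries, at 213 of the 552 miRNAs (38.6%). In edgeR's fit of these 5 libraries its log2 fold change was -0.39, a level 1.31-fold higher in the controls, with a standard error of 0.085, an interval of -0.57 to -0.22 and an adjusted p of 0.000668. The library left out held the lowest value of miR-210-3p, so the small standard error and p partly follow from leaving it out. The exact permutation test of the TPM values gave a difference of -131 TPM with p = 0.1. This is the smallest p that 3 libraries against 2 can give. That fit called 56 of 565 miRNAs (9.91%) at the same adjusted threshold, and 38 of the 565 (6.73%) were called as lower under overexpression. miR-210-3p ranked 23 by its p. Over the 14 other alternatives its adjusted p was between 0.786 and 0.999 from edgeR, limma or DESeq2. Its log2 fold change was between -0.051 and 0.32 there, and it was below 0 with the library size alone, with that size less the most abundant miRNA and without overexpression replicate 2.

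**Figure D2:**
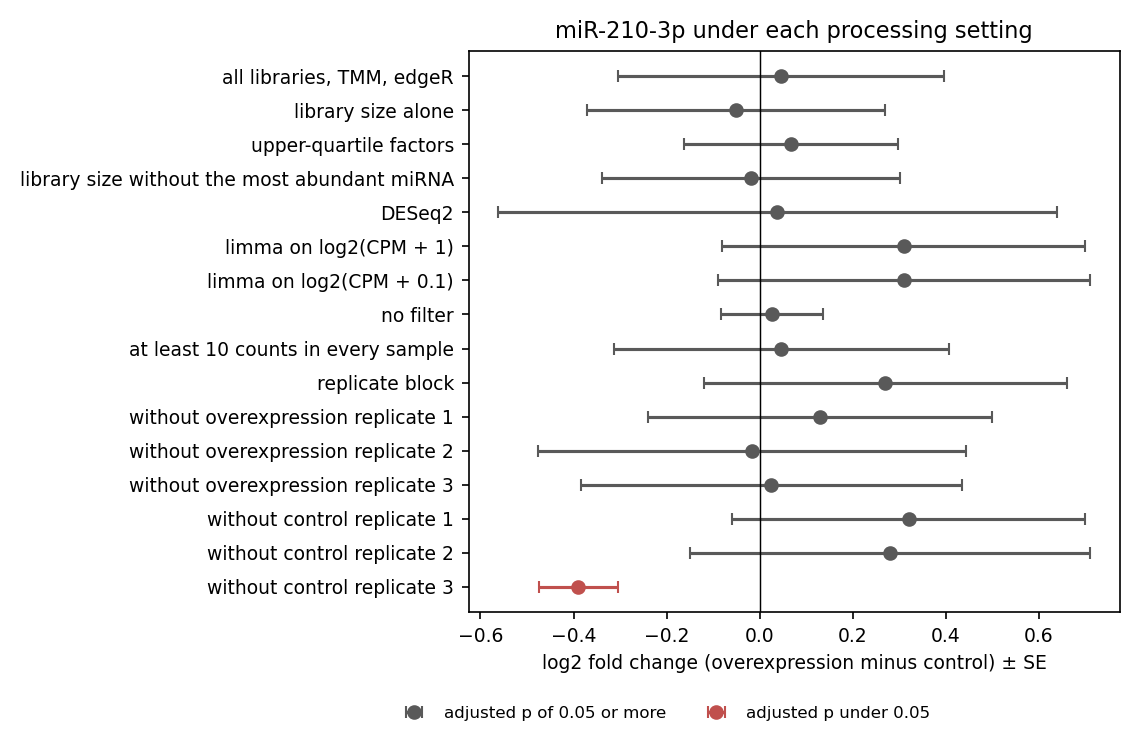
Log2 fold change of miR-210-3p (overexpression minus control, horizontal axis) with its standard error under each processing setting or with 1 library left out. The value without control replicate 3, -0.39, is the only one with an adjusted p under 0.05, and the others lie between -0.051 and 0.32.

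The low value of control replicate 3 was particular in size. Its log2 CPM was 2.06 lower than the mean of control replicates 1 and 2, which is 4.17-fold, and this was the lowest of all 552 tested miRNAs, for which the median was 0.0046 and the 5th and 95th percentiles were -0.66 and 0.60. Among the 192 miRNAs with at least 50 CPM, miR-19a-3p came next (-1.20), followed by miR-542-3p (-0.97), miR-190a-5p (-0.90), miR-374a-3p (-0.85) and miR-19b-3p (-0.81). Between control replicates 1 and 2, miR-210-3p differed by 1.05-fold, and among the overexpression libraries by 1.04-fold to 1.24-fold. By size of difference it ranked 13 and 14 from the largest of the 192 miRNAs between overexpression replicate 1 and replicates 2 and 3. It ranked 138 between overexpression replicates 2 and 3 and 81 between control replicates 1 and 2. The biological coefficient of variation that edgeR estimated for it was 0.305, which ranked 3 from the highest of the 552 miRNAs, against a median of 0.117. These ranks were looked for after the values of miR-210-3p had been seen and were not tested.

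Base composition moved with the difference of control replicate 3 from the other controls. Over the 174 of 192 abundant miRNAs with a RefSeq sequence, Spearman's rho between the GC content of the mature sequence and this difference was 0.45, as a description across miRNAs that share the same libraries. The median difference was -0.28 for 54 miRNAs under 40% GC and 0.17 for 20 miRNAs of 60% GC or more. miR-210-3p belongs to the latter 20, of which 5 were below 0 and the next lowest was at -0.54. The part of base composition in the low value of miR-210-3p was not tested. A smaller number of expressing cells and a smaller amount of miR-210-3p per cell cannot be told apart in bulk RNA.

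miR-210-5p, the passenger arm, was close to the limit of detection. Overexpression libraries 1 to 3 held 3, 8 and 2 of its reads and control libraries 1 to 3 held 9, 4 and 0, a sum of 13 on each side. As TPM these were 0.376, 0.945 and 0.241 beside 0.834, 0.461 and 0, with overlapping groups, and the 0 in control replicate 3 allows up to 0.42 TPM by the limit of 3 counts, while its 95% Poisson interval reaches 0.516 TPM. It did not pass the filter on low counts and so has a fitted value only where edgeR was run on all miRNAs with a count. That value was a log2 fold change of 0.23 with a standard error of 0.71 and an adjusted p of 0.923. The mean was 0.521 ± 0.373 TPM under overexpression and 0.432 ± 0.418 TPM for the controls (SD, n = 3 each), and without control replicate 3 the control mean was 0.648 ± 0.264 TPM (n = 2), above the overexpression mean. So few reads cannot show whether the plasmids differed, and no difference was detectable at this depth.

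Nearly all reads of the hairpin came from its 3p arm. The 5p arm made up 13 of 8621 reads of both arms in the overexpression group, 0.151% (95% exact binomial interval 0.0803 to 0.258), and 13 of 10204 in the control group, 0.127% (0.0679 to 0.218). Without control replicate 3 the control share was 0.139% (0.0742 to 0.238). Its share in the single libraries was 0.119%, 0.261% and 0.066% under overexpression, and 0.173% and 0.0972% in control replicates 1 and 2. In control replicate 3 it was 0 of 873 reads, which allows a share of up to 0.344% by the limit of 3 counts, while its exact binomial interval reaches 0.422%. The exact intervals of all 6 libraries overlapped.

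The ratio of the arms is taken within a library, before any scaling, but where an arm has no read it is set by the depth of the other arm and the added count. With 0.5 added to each count, the log2 ratio of the 3p to the 5p arm came to 9.49, 8.49 and 10.24 under overexpression (replicates 1 to 3), beside 9.10, 9.84 and 10.77 for the controls. The last value rests on a count of 0, and from the limit of 3 counts the 3p arm was at least 291-fold more abundant in that library, a log2 ratio of at least 8.18. The means were 9.41 ± 0.88 and 9.90 ± 0.84 (SD, n = 3 each), which differ by -0.49 (p = 0.5 in the two-sided exact permutation test). Without control replicate 3 the difference was -0.058 (exact permutation test, p = 1), and with 5 added to each count it was 0.036. With control replicate 3 at its limit the control mean was 9.04 ± 0.83 and the difference 0.37 (exact permutation test, p = 0.7), so that these counts give no direction. This setting was chosen after the values were seen. At a total of 26 reads of the 5p arm, the 4.17-fold lower level of the 3p arm in control replicate 3 could not be followed in the other arm.

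Among 157 precursors with both arms in the table and at least 1000 reads of both arms together, miR-210 ranked 27 from the most one-sided, with 0.138% of its 18825 reads from the minor arm. The median over these precursors was 2.29%. Arms were paired by name, so that hairpins sharing a name are counted together as a precursor here. The 3p arm was the major one in 71 precursors and the 5p arm in 86. The precursors next to miR-210 in this order were miR-186 (0.128%), whose major arm is 5p, and miR-151a (0.147%), whose major arm is 3p. Both shares lie within the interval of miR-210, so that its rank is approximate. The arm ratio did not overlap between the groups for 24 of the 157 precursors (15.3%), and for 53 (33.8%) without control replicate 3. For miR-210 it overlapped with and without that library.

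**Figure D3:**
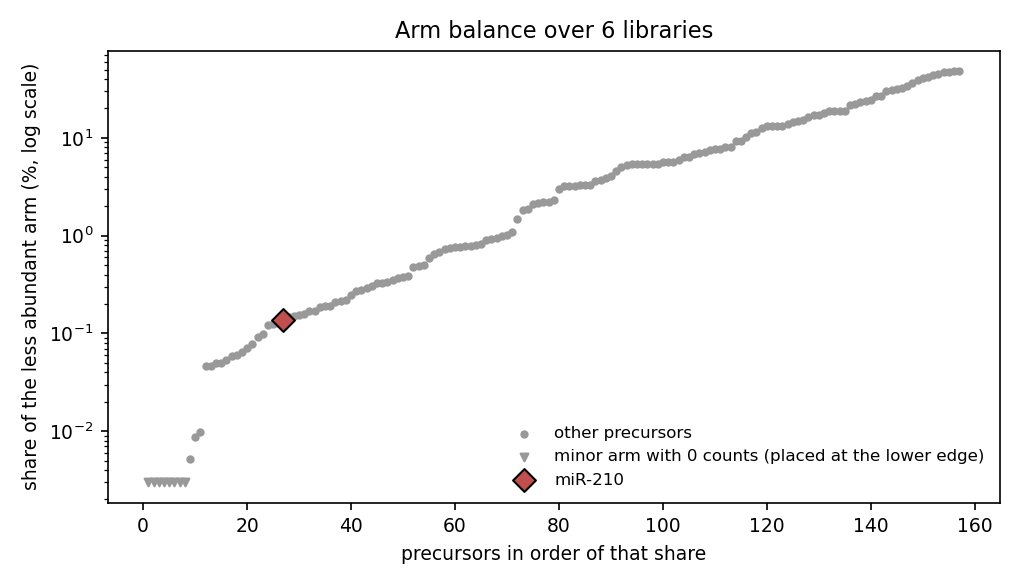
Share of reads from the less abundant arm (vertical log axis, in percent, over 6 libraries) for 157 precursors in order of that share (horizontal axis), with triangles at the lower edge for a minor arm at 0 counts. miR-210 ranks 27, at 0.138%, below the median of 2.29%.

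Other miRNAs were compared with miR-210-3p by the Pearson correlation of log2 CPM over the 6 libraries, given as a description, since the libraries fall in 2 groups and control replicate 3 weighs most. The 5 most alike of the tested miRNAs were miR-497-5p (0.98), miR-455-5p (0.98), miR-3613-5p (0.97), miR-548x-3p (0.97) and miR-542-3p (0.97). Over the 5 libraries without control replicate 3, these correlations were 0.99, 0.77, 0.64, 0.93 and 0.81. miR-497-5p was counted 122, 133 and 132 times in the overexpression libraries and 206, 163 and 92 times in the controls. miR-542-3p was counted 2404, 2678 and 2278 times and 4011, 3260 and 1455 times. Their log2 fold changes were between -0.017 and 0.085, and edgeR gave them adjusted p values of 0.8 to 0.979. Without control replicate 3 the fold changes ranged from -0.26 to -0.05, a sign that is partly fixed by choosing miRNAs that follow miR-210-3p. miR-542-3p, at -0.26, passed the threshold (adjusted p = 0.0385 from edgeR, with a range of 0.0385 to 0.998 over 15 alternatives), where 6.73% of all miRNAs passed as lower.

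Within 2 Mb on chromosome 11, GENCODE places 8 miRNA genes, MIR210 included. In the table, 11 mature miRNAs other than the arms of miR-210 carry their names. miR-483-3p, from an intron of IGF2, a fetal growth factor gene, was the most abundant of them at a mean of 759 TPM, above miR-210-3p at 354 TPM. It was counted 5632, 5308 and 7429 times under overexpression and 8181, 6587 and 5764 times with the control plasmid, and its other arm, miR-483-5p, had a mean of 95.5 TPM. Relative to the mean of control replicates 1 and 2, control replicate 3 differed by -0.0071 for miR-483-3p on the log2 CPM scale. The remaining mature miRNAs of this stretch had few or no reads. miR-675-5p, which is processed from the imprinted H19 transcript, was counted 1 time in overexpression replicate 1 and 1 time in control replicate 1, and miR-675-3p 1 time in overexpression replicate 1. miR-6743-5p and miR-6743-3p, miR-6744-5p and miR-6744-3p, miR-4298, miR-7847-3p and miR-4686 had 0 counts in all 6 libraries. A count of 0 allows up to 0.278 to 0.42 TPM per library.

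miRNAs that have been described as raised by low oxygen together with miR-210 in cancer cells were followed as a list of 12 (the miR-23, miR-24, miR-26, miR-27, miR-103/107 and miR-181 families). All 12 were tested, and edgeR called 0 of them at the adjusted threshold (1 unadjusted), against 0% (9.06% unadjusted) of all miRNAs tested, so that this count is near that of all miRNAs. By sign 8 were higher and 4 lower under overexpression, with a median log2 fold change of 0.046 beside 0.0038 over all 552 miRNAs. This median turned to -0.071 when scaled by the library size alone, where that of all miRNAs moved to -0.11, to -0.033 with that size less the most abundant miRNA, and to -0.0074 without control replicate 1. The fold changes ranged from -0.13 for miR-27a-3p (adjusted p = 0.617 from edgeR) to 0.74 for miR-181c-5p, which had 7 to 16 counts per library (adjusted p = 0.562). miR-103a-3p, an intronic miRNA of the PANK genes, was the member behind the unadjusted call. It was counted 154198, 157738 and 158899 times in the overexpression libraries and 184048, 158035 and 142043 times in the controls, and its log2 fold change of 0.17 (standard error 0.066) had an adjusted p of 0.421 in edgeR. Without control replicate 3 the median of the list was -0.0016, and miR-103a-3p alone of the 12 passed the threshold, with 0.18 (adjusted p = 0.0419 from edgeR), where 18 of all 565 miRNAs (3.19%) passed as higher and 9.91% in either direction. A single call among 12 is too few to set the list apart. Over its 15 alternatives the adjusted p of miR-103a-3p ran from 0.0419 to 0.847, and it passed in this setting only.

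In control replicate 3, the low-oxygen list did not share the low value of miR-210-3p. Relative to the mean of control replicates 1 and 2, 5 of the 12 members were lower, with a median of 0.07 on the log2 scale and a range from -0.31 (miR-26b-5p) to 0.40 (miR-181a-5p). miR-107, which lies closest to miR-103a-3p in sequence, was at -0.07. miR-210-3p was at -2.06 in the same comparison. Near-identical members such as miR-103a-3p and miR-107, miR-23a-3p and miR-23b-3p, miR-26a-5p and miR-26b-5p, or miR-27a-3p and miR-27b-3p could share reads, and their separate values are uncertain.

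miRNAs described as targeting HIF1A mRNA formed a second list of 8, of which 6 passed the filter. Both this list and the low-oxygen list were chosen with earlier results of these data known. The calls among their members are therefore a description and no test of the lists. miR-155-5p had 2 to 6 counts per library and miR-519c-3p 1 count in all, and neither was tested. edgeR called 0 of these 6 at the adjusted threshold (3 unadjusted), beside 0% (9.06% unadjusted) of all miRNAs. Of them 4 were lower and 2 higher under overexpression, with a median log2 fold change of -0.21. This median was below 0 in all 15 alternatives, which reuse the same libraries. For miR-17-5p the log2 fold change was -0.34 (standard error 0.091, edgeR adjusted p = 0.295). miR-18a-5p had -0.42 (standard error 0.13, adjusted p = 0.306), and miR-199a-5p, at 30 to 60 counts per library, had -0.47 (standard error 0.22, adjusted p = 0.539). miR-20a-5p was at -0.082 (adjusted p = 0.772), and miR-338-3p and miR-20b-5p were at 0.14 and 0.21, with adjusted p of 0.76 and 0.703.

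Without control replicate 3 the median of the HIF1A-targeting list was -0.33. Because this list was chosen with earlier results of these data known, the share of its members called does not test it. edgeR called 3 of the 6 tested members as lower under overexpression, against 6.73% of all miRNAs tested. These were miR-17-5p (-0.44, adjusted p = 9.06e-06), miR-18a-5p (-0.59, adjusted p = 1.97e-07) and miR-20a-5p (-0.22, adjusted p = 0.0103, all from edgeR). Over 15 alternatives their adjusted p values ran up to 0.847, 0.847 and 0.96. With control replicate 3 kept, miR-17-5p also passed when low counts were not filtered and when libraries were scaled by size alone, and miR-18a-5p when low counts were not filtered, where the lowest adjusted p values from edgeR were 0.0381 and 0.00982. All 3 are processed from the same primary transcript, MIR17HG, and are not independent of each other. In control replicate 3 each of the 6 members was lower than the mean of control replicates 1 and 2, by 0.10 to 0.50 on the log2 scale. Of all 552 tested miRNAs 272 were lower in that library, and these values lie within the range from -0.66 to 0.60 between the 5th and 95th percentiles.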

How the data were processed

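miRNA sequencing of 6 Huh7 libraries was used, grouped by the sample titles. The authors deposited counts of reads per mature miRNA and TPM values, which equal the count scaled by the library total (CPM) to within 0.00303. The submitters' processing notes name TopHat2 2.0.9, TopHat, Bowtie and hg38 with no role. The miRNA annotation, and whether a read matching more than 1 miRNA was counted for each, are not given in the sources used here, and reads shared by similar miRNAs would change their counts most. Total counts were 7144798 to 10786295 per library.

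Counts were compared with edgeR 4.0.16 in R 4.3.3. miRNAs were kept by filterByExpr (minimum count 10, minimum total 15), which left 552 with 99.98% of all counts. After TMM scaling, group was the single term of the quasi-likelihood fit. Its two-sided p-values were adjusted by Benjamini and Hochberg's method over all miRNAs that the fit tested, at a threshold of 0.05. miR-210-5p passed no filter, so its fold change comes from the fit without one. Standard errors were derived from its F statistic. The arm ratio and the TPM values were tested by exact permutation. Differences of log2 CPM between libraries used an added 0.5. The fits were tested on simulated data. Libraries of a group were not duplicates of each other (chi-square per degree of freedom 17.6 to 162). RNAfold 2.7.2 folded the hairpin.

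Alternatives were DESeq2 1.42.0, limma 3.58.1, other scalings and filters, a replicate block, 5 added to each arm, and leaving out each library. The members and lists were chosen with earlier results of these data known. The miRNAs named were the members, both lists, the markers, the neighbors of miR-210 by abundance, arm ratio and position (2 Mb), miRNAs with a shared seed and the 5 most correlated. The miRNAs lowest in control replicate 3, the minimum of 50 CPM, the minimum of 1000 reads for precursors and the look at GC content were chosen after values were seen.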

Additional observations from a re-analysis of the deposited data

How the results depend on the processing

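The log2 fold change of miR-210-3p, 0.046 with all libraries, was -0.051 with the library size alone, -0.018 when the most abundant miRNA was also left out of that size, 0.31 with limma at either added value, and from -0.39 to 0.32 with a library left out. Leaving out control replicate 3 gave -0.39 and leaving out overexpression replicate 2 gave -0.016. Under the first 2 settings the median of all miRNAs moved to -0.11 and -0.075. miR-210-5p could be given a value only without a filter (0.23), so the other settings gave none. The difference in TPM, -12.1, was 11.7 on the CPM scale after TMM, 0.19 on the log2(TPM + 1) scale and from -131 to 49.5 with a library left out. The difference in the arm ratio, -0.49, was 0.036 with 5 added to each arm, 0.37 with control replicate 3 at the limit of 3 counts (chosen after the data were seen) and from -0.91 to -0.034 with a library left out. The cause was not tested for any of these.

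edgeR's calls at the adjusted threshold, 0 with all libraries (50 unadjusted, and 0 in DESeq2 with 41 unadjusted), numbered 3 with the library size alone, 6 without a filter and from 0 to 56 with a library left out, where all but the fit without control replicate 3 gave 0. The median of the low-oxygen list, 0.046, was -0.071 with the library size alone. That of the HIF1A-targeting list stayed below 0 in all 15 alternatives, which reuse the same libraries.

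The labels do not say whether libraries with the same replicate number belong together. Over 192 abundant miRNAs, deviations from the group means correlated between libraries of the same number at -0.11, 0.16 and 0.21. Libraries of unlike number were not compared in this way, so these values cannot decide whether the numbers pair the libraries. In the fit with the replicate block, miR-210-3p had 0.27 (edgeR adjusted p = 0.801), with 0 calls in all (42 unadjusted). Depth limits miR-210-5p, at 26 reads in all, and not miR-210-3p.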
